A study of Mus musculus with 12 samples.

Results

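The genes described here are 10 members of the vascular endothelial growth factor (VEGF) family and of the endothelins: the ligands Pgf, Vegfa, Vegfb and Vegfc, the receptors Flt1 and Flt4, the co-receptors Nrp1 and Nrp2, and the endothelins Edn1 and Edn2. They were taken by symbol from tables that list 23284 genes in each of 12 libraries, and all 10 were found and passed the filter on low values. The members were chosen by measured values of these same libraries, namely the siMyc levels of Pgf and Edn2 with doxycycline (dox) and of Flt4 without it. Every difference of a member that involves siMyc libraries is therefore given as a description with no test, while the dox comparisons in siControl and siGcn5 cells and the siGcn5 comparisons were tested.

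The cells were secondary 1B MEFs, fibroblasts from mouse embryos that carry reprogramming factors under the control of dox, so every group, controls included, carries those inducible factors. As background, such secondary fibroblasts descend from a single reprogrammed clone. The 6 groups received siControl, siMyc (against Myc) or siGcn5 (against Kat2a, which encodes the histone acetyltransferase Gcn5), each without dox or with dox for 2 days, with 2 libraries of ribosome-depleted total RNA per group. The series text names its time points day 0 and day 2, and the labels' protocol adds dox in embryonic stem cell medium the day after transfection. Neither the medium of the libraries without dox nor the time from transfection to their harvest is given, so dox cannot be told apart from medium or time in culture. The labels mention siRNA pools and single siRNAs and tie neither to a library. Whether the 2 replicates of a group came from separate cultures is not stated, and p-values therefore cover only library-to-library spread, which may be technical.

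VEGF ligands are secreted dimers that bind receptor tyrosine kinases, chiefly on endothelial cells: Vegfa binds the receptors Flt1 (VEGFR1) and Kdr (VEGFR2), Pgf and Vegfb bind Flt1, and Vegfc binds Flt4 (VEGFR3) and Kdr. Neuropilins, encoded by Nrp1 and Nrp2, bind VEGF ligands as well as class 3 semaphorins, and fibroblasts and other mesenchymal cells express them. Endothelins are short vasoactive peptides cut from larger precursors by endothelin-converting enzymes and act through the receptors Ednra and Ednrb. Fibroblasts are known as a source of Vegfa and respond to endothelins through Ednra.

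Values are RPKM, in which read numbers are divided by transcript length and by library depth, so that levels can be set beside each other between genes. The libraries held 65.5 M to 188 M gene reads, and both extremes were siMyc libraries with dox. Both targeted genes were lower under their own siRNA. Without dox the mean of Myc was 19.6 RPKM for siControl against 4.69 for siMyc, and with dox it was 165 against 21.6. The mean of Kat2a was 21.9 RPKM for siControl against 1.65 for siGcn5 without dox, and 54.4 against 7.69 with dox. Each target was also below siControl under the other siRNA. The mean of Myc in siGcn5 was 8.20 RPKM without dox and 116 with dox. The mean of Kat2a in siMyc was 17.0 RPKM without dox and 18.8 with dox. All 9 fibroblast markers examined had a mean of at least 1 RPKM in every group, among them Col1a1, Vim and Thy1. Their summed level was 12250 to 12440 RPKM in siControl without dox and 3577 to 4030 with dox, while that of 12 keratinocyte and epithelial markers went from 11.6 to between 872 and 959. These are bulk libraries, in which fewer cells of a type and less RNA per cell cannot be told apart.

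**Figure D1:**
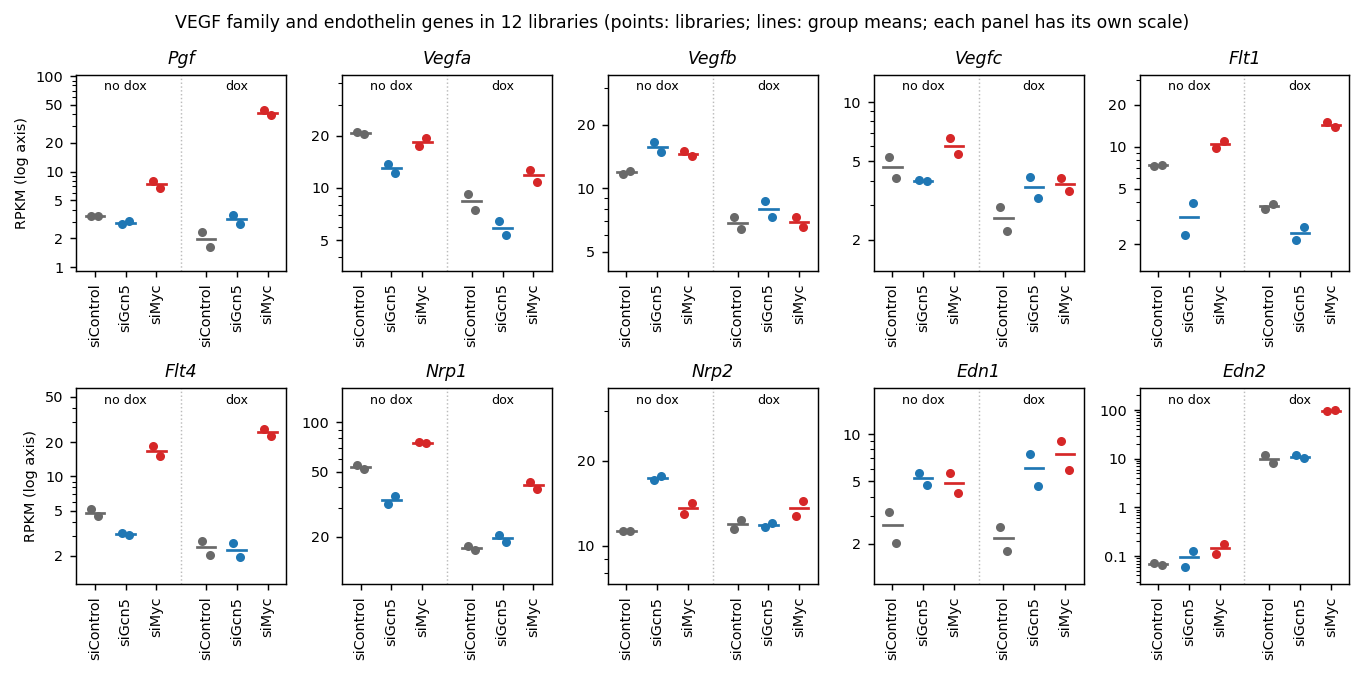
RPKM (log axis, a separate scale for each gene) of the 10 genes in siControl, siGcn5 and siMyc libraries without dox (left of each dotted line) and with dox (right); points are the 2 libraries of a group and lines are group means. Edn2 lies under 0.2 RPKM in all 6 libraries without dox, and the siMyc libraries with dox are the highest for Pgf, Flt1, Flt4 and Edn2.

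The members differed widely in level. In siControl without dox, Nrp1 was the most abundant at 53.3 ± 2.3 RPKM (SD, n = 2), followed by Vegfa at 20.7 ± 0.29, Vegfb at 11.9 ± 0.24 and Nrp2 at 11.3 ± 0.044. Flt1, Flt4, Vegfc, Pgf and Edn1 lay between 7.32 and 2.62 RPKM. Edn2 was the lowest, at 0.0716 and 0.0643 RPKM, which came from 12 reads in each library. Of the family genes outside the set, Figf (VEGF-D) averaged 7.46 RPKM and Kdr 1.37 in the same group, and Edn3 had 0 and 2 reads.

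The first question was how 2 days of dox changed these genes in siControl cells. Of the 10 members, 7 fell and 1 rose at a limma adjusted p under 0.05, over a background in which 27.9% of 13175 tested genes fell, 46.1% rose and 74% were called in either direction. The median log2 change of the members was −0.69, against 0.17 for all tested genes. Changes are log2 differences of RPKM + 1, which understates the change of low genes. No member's call in this comparison was lost when any single library was left out. Median-ratio scaling brought the median of all genes to 0.05 and quantile normalization to −0.00, and the share of rises among all calls went from 62.3% to 53.2% and 49.9%, with no called member changing direction.

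All 4 VEGF ligands in the set fell. Vegfa, the main driver of vessel growth, was at 20.9 and 20.5 RPKM without dox and at 9.27 and 7.49 with dox, a log2 change of −1.22 (SE 0.12, adjusted p = 7.7e-06). Both libraries with dox lay below both without. Vegfb, a ligand of Flt1, went from 11.7 and 12.1 RPKM to 7.34 and 6.41 (log2 −0.71, SE 0.10, adjusted p = 0.000101). Vegfc, the ligand of lymphatic vessel growth, went from 5.26 and 4.12 to 2.93 and 2.21 (log2 −0.67, SE 0.14, adjusted p = 0.00165). For both genes, too, the libraries with dox lay below those without. Pgf, placental growth factor, was lowest of the 4, at 3.40 and 3.44 RPKM without dox and 2.33 and 1.62 with dox (log2 −0.58, SE 0.13, adjusted p = 0.00241). The summed level of these ligands and Figf was 48.1 and 48.3 RPKM without dox and 25.0 and 20.8 with dox.

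Receptors and the co-receptor Nrp1 fell as well. Flt1, a receptor with high affinity for Vegfa and weak kinase activity, was at 7.22 and 7.42 RPKM without dox and 3.58 and 3.91 with dox (log2 −0.81, SE 0.16, adjusted p = 0.000926). Flt4 went from 5.13 and 4.44 RPKM to 2.70 and 2.05 (log2 −0.78, SE 0.14, adjusted p = 0.000472), with no overlap between the groups. Most Flt1 and Flt4 RNA is known from endothelial cells, and Nrp1 is also a fibroblast gene. Nrp1 had the largest fall of the set, from 55.0 and 51.7 RPKM to 17.6 and 16.7 (log2 −1.58, SE 0.085, adjusted p = 1.8e-07). Its paralog Nrp2 was at 11.3 in both libraries without dox and 11.5 and 12.4 with dox, a difference that did not pass the test (log2 0.07, SE 0.081, adjusted p = 0.452). Nrp1 thus made up 82.5 ± 0.57% of the summed neuropilin RPKM without dox and 59.0 ± 2.2% with dox (SD, n = 2).

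The 2 endothelins differed in level and in response. Edn2 rose from 12 reads in each library without dox to 1985 and 975 reads with dox, which is 12.0 and 8.06 RPKM, or 148 times the mean without dox on the RPKM scale (log2 3.34, SE 0.14, adjusted p = 4.1e-08). Edn1, the endothelin best known from blood vessels, was at 3.21 and 2.03 RPKM without dox and 2.58 and 1.81 with dox, and the groups overlapped (log2 −0.17, SE 0.25, adjusted p = 0.549). Edn2 accordingly made up 2.62 ± 0.63% of the summed endothelin RPKM without dox and 81.9 ± 0.41% with dox (SD, n = 2). Replicate 1 of Edn1 was above replicate 2 in all 6 groups, as it was for Vegfc and Flt4. The GENCODE annotation of GRCm38 places an antisense gene over Edn1 that is no row of these tables, and the sources used here do not say how strand was handled in counting.

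The promoters of the endothelins and of Flt1 are shown because Edn2 and Flt1 moved in opposite directions with dox and Edn1 did not pass the test. Each window is the 250 bases before the RefSeq start of the gene in GRCm38.p6, read 5′ to 3′ on the gene's strand, at chr4:120160956-120161205 (+) for Edn2, chr13:42301226-42301475 (+) for Edn1 and chr5:147726012-147726261 (−) for Flt1. Capitals mark matches to GGGCGG on either strand, the core letters of a GC box.
Edn2: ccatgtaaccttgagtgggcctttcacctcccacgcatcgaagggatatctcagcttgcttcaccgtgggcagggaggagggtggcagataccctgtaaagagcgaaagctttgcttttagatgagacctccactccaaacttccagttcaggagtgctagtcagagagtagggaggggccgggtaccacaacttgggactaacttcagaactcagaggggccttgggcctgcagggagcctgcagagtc
Edn1: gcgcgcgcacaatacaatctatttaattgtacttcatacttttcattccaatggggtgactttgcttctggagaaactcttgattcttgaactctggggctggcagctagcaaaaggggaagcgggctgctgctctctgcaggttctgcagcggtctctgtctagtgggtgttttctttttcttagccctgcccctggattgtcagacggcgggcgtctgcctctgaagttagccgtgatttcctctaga
Flt1: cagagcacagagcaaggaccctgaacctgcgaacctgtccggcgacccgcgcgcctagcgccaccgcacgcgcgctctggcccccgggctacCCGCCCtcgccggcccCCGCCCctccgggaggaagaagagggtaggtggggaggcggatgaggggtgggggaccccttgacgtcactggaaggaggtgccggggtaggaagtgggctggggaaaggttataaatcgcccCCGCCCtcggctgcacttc
The window of Flt1 holds 3 such matches and those of Edn1 and Edn2 hold none. Windows were matched by symbol for all 10 members, 12 windows in all, since Pgf and Vegfa have 2 each. GGGCGG stood in 9 of them, from 8 members, against 32.7% of all 32851 windows of this length. The E-box CACGTG, searched on both strands, stood in none of the 12 windows and in 6.02% of all windows, and TGACTCA in none and in 4.46%. ACGTG, which is also part of CACGTG, stood in 1 window of Vegfa and in 16.6% of all windows. A match is a description of letters, and no match says only that these letters are not in this window.

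Genes around the members in the pathway were read from 7 lists. Of 17 tested genes of VEGF reception and signalling outside the set, 10 fell and 1 rose with dox in siControl, with a median log2 change of −0.37. Mmp14, a membrane protease, fell from a mean of 182 to 56.7 RPKM (log2 −1.66, limma adjusted p = 2.7e-07), Cav1, which encodes caveolin, fell by 1.18, and the phosphatase gene Ptprj rose by 1.15. Of 5 endothelin processing and receptor genes, 3 fell and 2 rose (median −0.86). Both receptors fell, Ednra from 4.64 to 0.385 RPKM (log2 −2.02, adjusted p = 2.8e-07) and Ednrb from 1.80 to 0.109 (log2 −1.32, adjusted p = 2.1e-05). Mme, whose product neprilysin degrades endothelins and other peptides, rose from 1.58 to 11.1 RPKM (log2 2.23, adjusted p = 4.1e-08), and the call of the other riser, Ece2, ended without any 1 of the 4 siControl libraries. Of 12 semaphorins, plexins and other neuropilin partners, 9 fell and 2 rose (median −0.44), led by the receptor Plxnd1 (10.0 to 1.70 RPKM, log2 −2.03), Sema3f (log2 −1.75) and Sema3a (log2 −1.55).

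The tested genes of a list of regulators of vessel growth, mostly matrix and secreted, are mostly known inhibitors. Besides these they hold Ccbe1, a cofactor in the activation of Vegfc, and Vash2, also described as promoting vessels. All 9 tested genes of this list fell with dox in siControl (median −1.95), among them Serpinf1 (245 to 47.1 RPKM, log2 −2.36), Thbs2 (log2 −2.32) and Thbs1 (log2 −2.05), and Ccbe1 fell by 0.86. The fibroblast markers moved with them: all 9 fell, with a median log2 change of −2.35. So did all 7 tested pericyte and smooth muscle markers (median −1.09), whose 9 listed genes summed to 4246 to 4318 RPKM without dox and 992 to 1284 with dox, most of it Acta2. Of 6 angiopoietin pathway genes, 2 fell and 1 rose (median −0.21). The riser was Tek, an angiopoietin receptor, at a mean of 0.0396 RPKM without dox and 8.11 with dox (log2 3.13, adjusted p = 3.6e-08). Of 9 oxygen-sensing genes, 3 fell and 2 rose (median −0.07), 5 fell and 1 rose with median-ratio scaling or quantile normalization, and Hif1a fell by 0.57. Of 20 genes known to be induced by low oxygen, 10 rose and 6 fell (median 0.28), where median-ratio scaling gave 7 rises and 6 falls and quantile normalization 6 and 7. Among them were Mxi1 (log2 1.68), Bnip3 (log2 −1.83) and P4ha2 (log2 −1.77). Endothelial markers stayed low in both groups: their 13 genes summed to 6.80 to 6.84 RPKM without dox and 6.97 to 8.90 with dox, 2 of 13 reached 1 RPKM, and Cldn5 was listed at 0 in all 4 libraries.

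The next comparison asked how dox changed the members in siGcn5 cells. Of the 10, 4 fell and 1 rose at a limma adjusted p under 0.05, where 22.4% of all tested genes fell, 36% rose and 58.4% were called in either direction. The median log2 change of the members was −0.30, against 0.08 for all tested genes. Rises made up 61.6% of all calls, while median-ratio scaling gave 47.4% and quantile normalization 43.0%. Edn2 was at 0.0584 and 0.130 RPKM without dox (9 and 14 reads) and at 11.7 and 10.4 with dox (log2 3.46, SE 0.14, adjusted p = 3.7e-08), 117 times the mean without dox. Vegfa went from 13.8 and 12.2 to 6.43 and 5.38 RPKM (log2 −1.02, adjusted p = 6.6e-05), and Vegfb from 16.5 and 14.8 to 8.72 and 7.33 (log2 −0.89, adjusted p = 5.5e-05). In these 3 genes every library with dox lay on one side of every library without.

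The neuropilins both fell in siGcn5 cells. Nrp1 was at 31.6 and 35.5 RPKM without dox and 20.6 and 18.5 with dox (log2 −0.75, SE 0.085, adjusted p = 5.0e-05), and Nrp2 at 17.0 and 17.7 without and 11.7 and 12.1 with dox (log2 −0.51, SE 0.081, adjusted p = 0.00043). Pgf (log2 0.08), Vegfc (log2 −0.09), Flt1 (log2 −0.26), Flt4 (log2 −0.34) and Edn1 (log2 0.15) did not pass the test, with adjusted p from 0.0565 for Flt4 to 0.615 for Edn1. Flt1 passed without siGcn5 replicate 1 without dox (adjusted p = 0.00605), since that library stood at 2.33 RPKM and its partner at 3.94. Flt4 passed without siGcn5 replicate 1 with dox (adjusted p = 0.0233). Scaling also moved these calls: Flt4 passed with a pseudocount of 0.1 (0.0419), median-ratio scaling (0.0152) and quantile normalization (0.00356), and Flt1 with the latter (0.0326), so the 4 falls became 5, 5 and 6.

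Whether the dox response itself differed between siGcn5 and siControl was tested by the interaction term. It was positive and called for 2 members and negative and called for 1, where 11.4% and 14.5% of all tested genes were called in those directions and 25.9% in either. Nrp1 fell less in siGcn5 cells, by a log2 difference of 0.83 (SE 0.12, limma adjusted p = 0.0031). All 9 fibroblast markers were called in the same direction (median 1.12), as were 4 of 7 pericyte and smooth muscle markers (median 0.85). The fibroblast markers summed to 9396 to 9767 RPKM in siGcn5 without dox and 4976 to 5769 with dox, and their part in the Nrp1 value was not tested. Of the introduced factors, Pou5f1 rose with dox by log2 6.99 in siControl and 5.55 in siGcn5 cells, and Sox2 by 4.65 and 3.75. Klf4 rose by 3.02 and 3.18. The part of these factor levels in the differences between responses was not tested. Nrp2 had a log2 difference between the responses of −0.58 (SE 0.11, adjusted p = 0.00746), with a fall in siGcn5 cells and a change that missed the threshold in siControl cells. Pgf had a difference of 0.66 (SE 0.19, adjusted p = 0.0279). It missed the threshold once either siControl library without dox, siControl replicate 2 with dox, or siGcn5 replicate 1 without or with dox was dropped (adjusted p from 0.0714 to 0.0975). For the other 7 members the term ran from −0.17 (Vegfb) to 0.58 (Vegfc, SE 0.20, adjusted p = 0.0605), and none was called in this fit. Vegfc passed with median-ratio scaling (adjusted p = 0.0392). A replicate block, for which no label gives a basis, called Vegfc (0.00512), Flt1 (0.0408) and Flt4 (0.0117). With that block the interaction calls among all 13175 tested genes went from 3409 to 5061.

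The effect of siGcn5 on cells without dox split the members. At a limma adjusted p under 0.05, 4 were lower and 3 higher than in siControl, where 20.4% of all tested genes were lower, 36.9% higher and 57.3% called in either direction. The median over members was −0.17, against 0.11 for all genes. The share of higher genes among all calls was 64.4%, and 49.3% with median-ratio scaling. Flt1 had the largest difference, with 7.22 and 7.42 RPKM in siControl and 2.33 and 3.94 in siGcn5 (log2 −1.04, SE 0.16, adjusted p = 0.00037). Nrp1 was at 55.0 and 51.7 against 31.6 and 35.5 RPKM (log2 −0.65, SE 0.085, adjusted p = 0.000139), and Vegfa at 20.9 and 20.5 against 13.8 and 12.2 (log2 −0.64, SE 0.12, adjusted p = 0.00131). The siGcn5 libraries lay below the siControl libraries for all 3.

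Flt4 was also lower, at 3.17 and 3.06 RPKM against 5.13 and 4.44 (log2 −0.49, adjusted p = 0.0121), and it missed the threshold once siControl replicate 1 was dropped (0.0875). Nrp2 was higher in siGcn5, at 17.0 and 17.7 RPKM against 11.3 in both siControl libraries (log2 0.58, SE 0.081, adjusted p = 0.000215), so the 2 neuropilins went in opposite directions. Edn1 was at 5.69 and 4.75 RPKM against 3.21 and 2.03 (log2 0.80, SE 0.25, adjusted p = 0.0191). Its call ended without siControl replicate 2 (log2 0.56) or siGcn5 replicate 1 (log2 0.69), and also without a filter on low values (adjusted p = 0.0511). Vegfb was at 16.5 and 14.8 against 11.7 and 12.1 RPKM (log2 0.37, SE 0.10, adjusted p = 0.0105). Its call ended without replicate 1 of siControl (log2 0.35) or of siGcn5 (log2 0.30), and also with quantile normalization (log2 0.23, adjusted p = 0.0531). Pgf (log2 −0.17), Vegfc (log2 −0.18) and Edn2 (log2 0.03, with 9 to 14 reads in all 4 libraries) did not pass.

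With dox, 3 members were higher and 2 lower in siGcn5 than in siControl, where 31.4% of all tested genes were higher, 24.9% lower and 56.3% called in either direction. The median over members was 0.17, against 0.05 for all genes. Higher genes made up 55.8% of all calls, and 43.8% with median-ratio scaling. Edn1 had the largest difference, at 7.44 and 4.64 RPKM against 2.58 and 1.81 in siControl (log2 1.12, SE 0.25, limma adjusted p = 0.0035), and its groups did not overlap. The other 4 calls each ended without 1 of the compared libraries. Pgf was at 3.49 and 2.86 RPKM against 2.33 and 1.62 (log2 0.49, adjusted p = 0.00956), and its call ended without siControl replicate 2 (0.0920) or siGcn5 replicate 1 (0.0772). Vegfc was at 4.15 and 3.26 against 2.93 and 2.21 (log2 0.40, adjusted p = 0.0369), and its call ended without the same libraries (0.247 and 0.234). It also missed the threshold with median-ratio scaling (0.0708), quantile normalization (0.0705), voom on recovered reads (0.0544), a pseudocount of 5 (0.0520), no filter on low values (0.0752) and only the compared groups (0.0712).

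Vegfa was lower in siGcn5 with dox, at 6.43 and 5.38 RPKM against 9.27 and 7.49 (log2 −0.44, adjusted p = 0.0107), which ended without siControl replicate 1 (0.0903) or siGcn5 replicate 2 (0.0677). Flt1 was at 2.13 and 2.66 RPKM against 3.58 and 3.91 (log2 −0.49, adjusted p = 0.0246), which ended without either siControl library or siGcn5 replicate 1 (0.0565 to 0.151). Vegfa and Flt1 were thus below siControl both without and with dox. Edn2 was at 11.7 and 10.4 RPKM in siGcn5 and 12.0 and 8.06 in siControl, with overlapping groups (log2 0.15, SE 0.14, adjusted p = 0.385). Vegfb (log2 0.20), Flt4 (log2 −0.05), Nrp1 (log2 0.18) and Nrp2 (log2 −0.00) also missed the threshold, so the lower Nrp1 and higher Nrp2 seen in siGcn5 without dox were not called with dox.

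**Figure D2:**
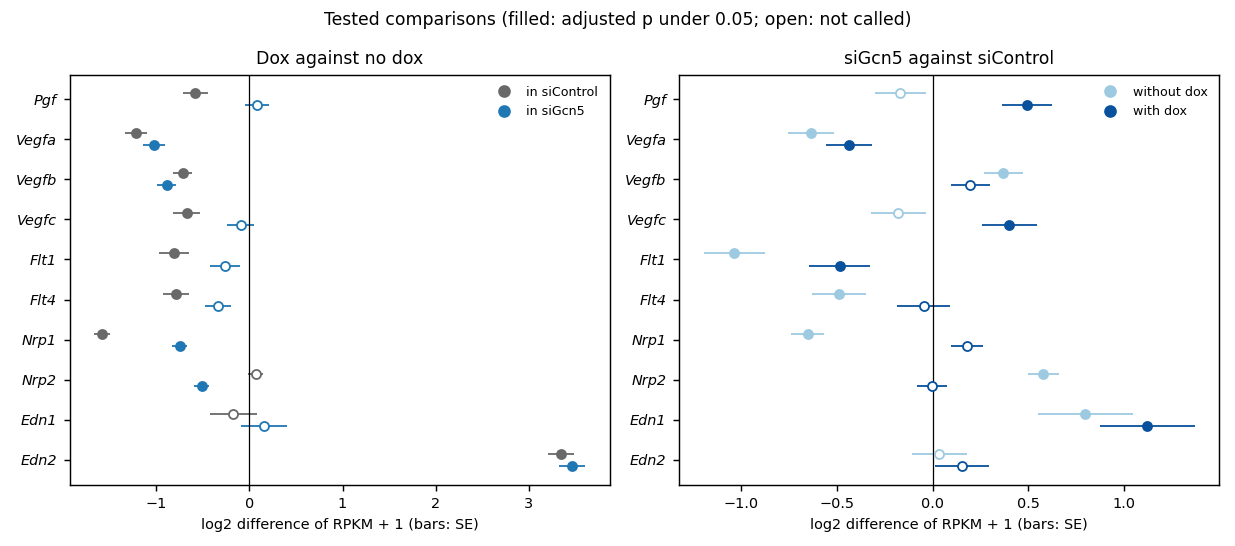
Log2 differences of RPKM + 1 for the 10 genes, dox against no dox in siControl and siGcn5 cells (left) and siGcn5 against siControl without and with dox (right); points are estimates from 2 libraries per group, bars are SE, and filled points passed a limma adjusted p of 0.05. Edn2 lies at 3.34 and 3.46 for dox while its siGcn5 differences, 0.03 and 0.15, are not called.

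Of the 17 VEGF signalling genes outside the set, 11 were higher and 1 lower in siGcn5 than in siControl with dox (median log2 0.34), led by the heat shock protein gene Hspb1 (212 to 536 RPKM, log2 1.35, limma adjusted p = 0.000173), Cav1 (log2 0.77) and the receptor Kdr. Kdr, which transmits most Vegfa signalling in endothelium, was at a mean of 0.830 RPKM in siControl and 1.96 in siGcn5 (log2 0.67, adjusted p = 0.00983), and it missed the threshold once siControl replicate 2 or siGcn5 replicate 1 was dropped. Without either of these libraries the count of higher genes was 7. Of the 5 endothelin processing and receptor genes, 2 were higher: Ece1, an endothelin-converting enzyme, at 39.0 and 68.1 RPKM (log2 0.79, adjusted p = 7.2e-05), and Ednra at 0.385 and 1.12 (log2 0.62, adjusted p = 0.00142). Of the 12 neuropilin partners, 9 were higher and 2 lower (median 0.51), led by Plxnd1 (1.70 to 5.95 RPKM, log2 1.35), and 4 were higher without siControl replicate 2 or without siGcn5 replicate 1. Without dox, 6 VEGF signalling genes were higher and 4 lower in siGcn5 (median 0.11), and with median-ratio scaling 3 were higher and 7 lower.

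The siMyc libraries hold the values by which the members were chosen, and what follows describes them with no test. Without dox, 9 of the 10 members lay higher in both siMyc libraries than in both siControl libraries, and 1, Vegfa, lay lower. In the same comparison 37.8% of all tested genes lay higher and 31.4% lower without overlap. Most of the differences were small: the log2 difference was 1.62 ± 0.14 (SE) for Flt4, 0.92 ± 0.13 for Pgf, 0.72 ± 0.25 for Edn1, 0.49 ± 0.085 for Nrp1 and 0.46 ± 0.16 for Flt1. It lay between −0.17 and 0.30 for Vegfa, Vegfb, Vegfc, Nrp2 and Edn2. For Edn2 the value of 0.10 is held down by the 1 added to means of 0.146 RPKM in siMyc and 0.0679 in siControl. The siMyc mean of Edn2 was 2.15 times that of siControl, from 22 and 29 reads against 12 in each siControl library. The median over members was 0.38, against 0.02 for all genes. Flt4 was the only member higher by 1 or more, as were 0.455% of all tested genes.

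Flt4, the receptor of Vegfc, set the siMyc libraries apart even without dox, at 18.4 and 15.2 RPKM against 5.13 and 4.44 in siControl and 3.17 and 3.06 in siGcn5. That was 3.51 times the siControl mean. Pgf was at 8.05 and 6.72 RPKM against 3.40 and 3.44, 2.16 times the siControl mean. Nrp1 was at 75.3 and 75.1 against 55.0 and 51.7 RPKM, and Flt1 at 9.84 and 11.0 against 7.22 and 7.42. The markers of lymphatic endothelium, where Flt4 is best known, stayed low or alike: Prox1 averaged 0.137 RPKM in siControl and 0.184 in siMyc, Lyve1 0.0406 and 0.0614, and the list of 3 markers summed to 8.08 to 9.72 RPKM in siControl and 7.91 to 10.0 in siMyc, nearly all of it Pdpn.

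With dox, 9 of the 10 members lay higher in both siMyc libraries than in both siControl libraries, where 44.9% of all tested genes lay higher and 43.2% lower without overlap. Vegfb was the exception, at 7.33 and 6.53 RPKM against 7.34 and 6.41. The median log2 difference over members was 1.30, against 0.02 for all genes, and 6 members were higher by 1 or more on the log2 scale, as were 10.9% of all tested genes. Pgf was at 44.2 and 38.8 RPKM in siMyc, 2.33 and 1.62 in siControl and 3.49 and 2.86 in siGcn5. The siMyc mean was 21.0 times that of siControl and 13.1 times that of siGcn5 (log2 differences of 3.84 ± 0.13 and 3.35 ± 0.13, SE).

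Edn2 was at 95.8 and 98.8 RPKM in siMyc with dox, from 7815 and 23118 reads, against 12.0 and 8.06 in siControl and 11.7 and 10.4 in siGcn5. Its siMyc mean was 9.71 times that of siControl (log2 3.18 ± 0.14). The siMyc libraries lie close together in RPKM although they differ in depth, and no other group came near them. Edn1 was at 9.08 and 5.89 RPKM in siMyc and 2.58 and 1.81 in siControl (log2 1.39 ± 0.25), and its siMyc and siGcn5 groups overlapped.

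The receptors Flt1 and Flt4 were also highest in siMyc with dox. Flt4 was at 26.3 and 22.8 RPKM against 2.70 and 2.05 in siControl, 10.3 times the mean (log2 2.92 ± 0.14). Flt1 was at 14.9 and 13.8 RPKM against 3.58 and 3.91, 3.83 times the mean (log2 1.69 ± 0.16). Nrp1 was at 43.3 and 39.0 RPKM against 17.6 and 16.7, 2.40 times the mean (log2 1.21 ± 0.085). Vegfa (log2 0.45), Vegfc (log2 0.45) and Nrp2 (log2 0.17) differed by less than 1, although their groups did not overlap. Kdr, the receptor outside the set, averaged 0.830 RPKM in siControl and 2.21 in siMyc with dox (log2 0.81, limma adjusted p = 0.00207).

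Set beside siGcn5 with dox, 5 members were higher in siMyc by 1 or more on the log2 scale, as were 6.82% of all tested genes. They were Pgf, Edn2 (3.03), Flt4 (2.97), Flt1 (2.18) and Nrp1 (1.04). Of the 10, 7 lay higher and 1, Vegfb, lower without overlap, where 34.2% and 46.4% of all tested genes did. Among all calls of that comparison 41.4% were higher, and 52.8% with median-ratio scaling. Both sets of libraries share the siControl libraries in their own comparisons, so their differences from siControl are given side by side only.

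The dox response in siMyc cells was mixed. From no dox to dox, 5 members lay higher and 4 lower without overlap, where 45% and 28.2% of all tested genes did. Rises made up 64.5% of all calls there, while median-ratio scaling gave 52.4% and quantile normalization 40.2%. By 1 or more on the log2 scale, 2 members (Edn2 and Pgf) were higher and none lower, where 7.39% and 1.68% of all tested genes were. Edn2 went from 0.113 and 0.179 RPKM (22 and 29 reads) to 95.8 and 98.8, or 666 times the mean (log2 6.42 ± 0.14). Pgf went from 8.05 and 6.72 to 44.2 and 38.8 RPKM, 5.62 times the mean (log2 2.34 ± 0.13), where in siControl it fell. Flt4 (log2 0.53 ± 0.14) and Flt1 (log2 0.42 ± 0.16) were also higher with dox in siMyc and lower with dox in siControl.

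The ligands Vegfb (log2 −0.98), Vegfa (log2 −0.60) and Vegfc (log2 −0.53) and the co-receptor Nrp1 (log2 −0.86) were lower with dox in siMyc cells, as in siControl. Vegfa, for one, was at 17.4 and 19.3 RPKM without dox and 12.7 and 10.9 with dox. Edn1 was at 5.63 and 4.19 without and 9.08 and 5.89 with dox, and Nrp2 at 13.0 and 14.1 without and 12.7 and 14.5 with dox. The siMyc response minus the siControl response on the log2 scale was 3.08 ± 0.20 for Edn2, 2.92 ± 0.19 for Pgf, 1.31 ± 0.20 for Flt4 and 1.23 ± 0.22 for Flt1, and lay between −0.27 and 0.73 for the other 6 members. These 4 differences were of 1 or more, as were 6.92% of all tested genes in that direction. On the RPKM scale the mean of Edn2 rose 666 times in siMyc and 148 times in siControl. Adding 1 to RPKM shrinks the siControl rise of Edn2 more than the siMyc rise, which enlarges its difference of 3.08. All these differences between responses are descriptions with no test.

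**Figure D3:**
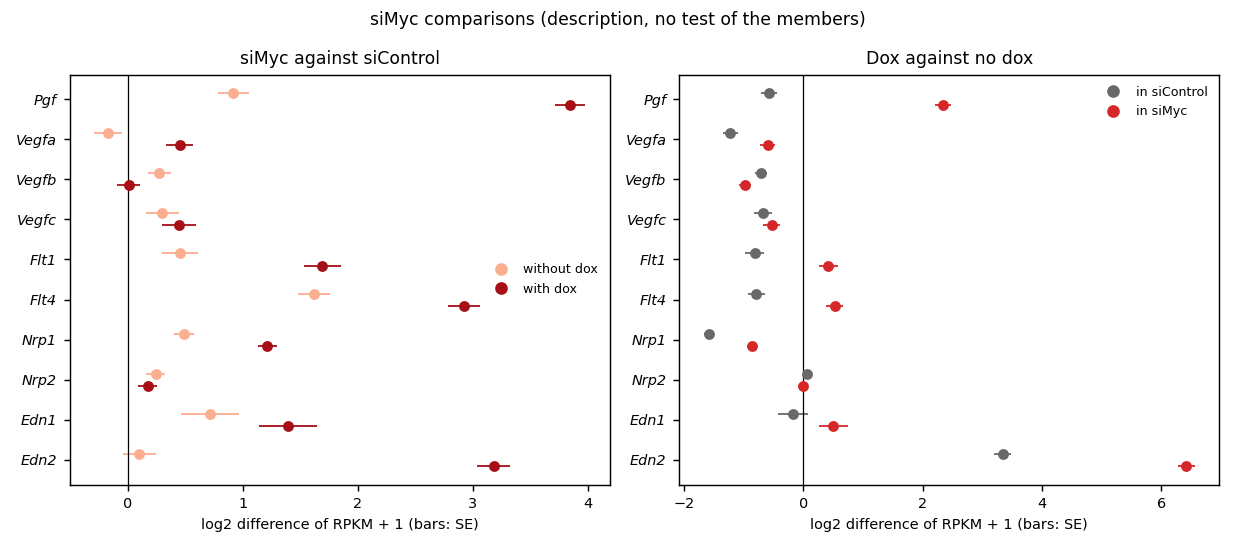
Log2 differences of RPKM + 1 for the 10 genes, siMyc against siControl without and with dox (left) and dox against no dox in siControl and siMyc cells (right); points are estimates from 2 libraries per group, bars are SE, and no test is shown. Pgf, Flt4 and Edn2 lie at 3.84, 2.92 and 3.18 in siMyc with dox, and Pgf, Flt1 and Flt4 lie on opposite sides of 0 for dox in siControl and in siMyc.

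The make-up of each family changed with these levels. Pgf made up 7.09 ± 0.037% of the summed RPKM of Pgf, Vegfa, Vegfb, Vegfc and Figf in siControl without dox and 8.58 ± 1.1% with dox (SD, n = 2). In siMyc it made up 13.8 ± 1.9% without and 60.5 ± 0.55% with dox, where Vegfa, at 43.0% in siControl without dox, made up 17.2 ± 0.53%. The summed ligand level in siMyc with dox was 72.6 and 64.7 RPKM, the highest of the 6 groups. Flt4 made up 35.4 ± 1.8% of the summed RPKM of Flt1, Kdr and Flt4 in siControl without dox, and in siMyc 56.5 ± 4.1% before and 59.7 ± 0.77% after dox. The endothelins summed to 105 RPKM in both siMyc libraries with dox, and Edn2 made up 92.8 ± 2.1% of it, against 65.2 ± 5.6% in siGcn5 with dox. Such shares follow from the levels above and add no evidence to them.

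**Figure D4:**
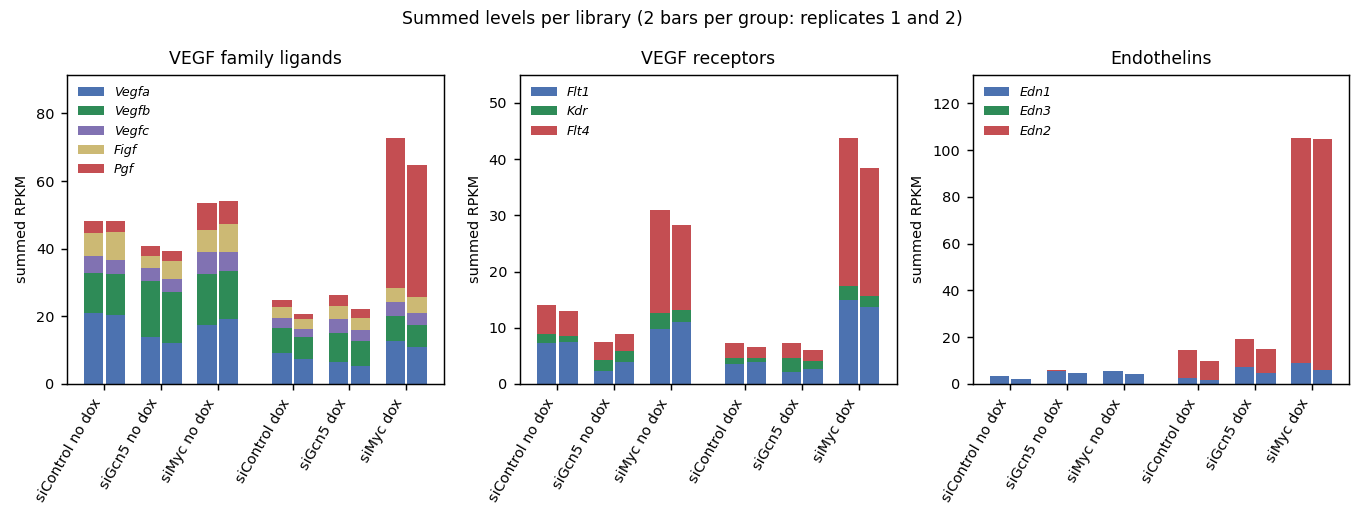
Summed RPKM per library of the VEGF family ligands (left), the VEGF receptors (middle) and the endothelins (right), stacked by gene, with 1 bar per library and 2 bars per group. Pgf makes up 60.5% of the ligand sum in siMyc with dox, and Edn2 makes up 81.9%, 65.2% and 92.8% of the endothelin sum in siControl, siGcn5 and siMyc with dox.

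Markers of other cell types moved beside these values. The 13 endothelial markers summed to 21.4 to 23.9 RPKM in siMyc with dox, against 6.97 to 8.90 in siControl with dox, and 3 of 13 had a mean of at least 1 RPKM. Most of that sum was Esam, at 18.1 RPKM, while the defining endothelial genes Cdh5 and Pecam1 averaged 0.261 and 0.349 RPKM and Sox17 was listed at 0. The keratinocyte and epithelial markers summed to 2160 to 2294 RPKM in siMyc with dox, to 872 to 959 in siControl and to 805 to 932 in siGcn5, and 9 of 12 in siMyc and 10 of 12 in the others had a mean of at least 1 RPKM. Krt14 averaged 954 RPKM in siMyc and 334 in siControl with dox, and 0.359 and 0.0600 without dox. Other markers of this list went the other way with dox. Cdh1 averaged 5.05 RPKM in siMyc and 17.0 in siControl, and Krt6a 31.3 and 83.5. Of the 10 tested markers, 6 were called higher and 2 lower in siMyc with dox, where 37.7% and 37.1% of all tested genes were. Edn2 was high in the groups in which Krt14 was high, while Trp63, a defining factor of basal keratinocytes, stayed under 0.1 RPKM in every group, and the part of such cells in the Edn2 values was not tested. None of 9 trophoblast markers, a lineage in which Pgf is abundant, had a mean of 1 RPKM in any group: they summed to 1.93 to 2.94 RPKM in siMyc with dox, and Tpbpa and Prl3b1 were listed at 0 in both libraries. Of the 7 pericyte and smooth muscle markers, 5 were higher in siMyc than in siControl with dox (median 0.69) and 1 was lower, and 5 were higher in siGcn5 (median 0.71). The 9 listed genes summed to 1752 to 1768 RPKM in siMyc and 2480 to 3265 in siGcn5 with dox, and their part in the members' values was not tested. Fibroblast markers summed to 7371 to 7495 RPKM in siMyc with dox, and the part of this difference from siControl in the values of Vegfa, Flt1 and Nrp1 was not tested.

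Pathway genes outside the set were tested in the siMyc comparisons too. With dox, 13 of 17 VEGF signalling genes were higher in siMyc than in siControl and 1 was lower (median log2 0.65), led by Sphk1, a sphingosine kinase gene (3.26 to 11.1 RPKM, log2 1.51, limma adjusted p = 4.8e-07), Mmp14 (log2 1.14) and the adapter gene Shb (log2 1.13). In this comparison 37.7% of all tested genes were called higher, 37.1% lower and 74.9% in either direction. Of 12 neuropilin partners, 10 were higher and none lower (median 0.94), with Sema3b from 5.50 to 30.0 RPKM (log2 2.25, adjusted p = 4.0e-07), Plxna4 (log2 1.81) and Sema3f (log2 1.60). Of 5 endothelin processing and receptor genes, 3 were higher and 1 lower (median 0.54): Mme went from 11.1 to 36.6 RPKM (log2 1.64, adjusted p = 3.0e-07), Ednra from 0.385 to 1.38 (log2 0.78), and Ece2 from 7.44 to 4.65 (log2 −0.58). Without dox, Ece1 was at 71.6 RPKM in siControl and 160 in siMyc (log2 1.15, adjusted p = 0.00018), and 7 of 12 neuropilin partners were higher and none lower, where 12.8% of all tested genes were called higher, 10.7% lower and 23.5% in either direction.

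Of the 9 matrix and secreted regulators of vessel growth, 5 were higher in siMyc with dox and none lower (median 0.55; 1 lower with quantile normalization), with Timp3 from 62.1 to 331 RPKM (log2 2.39) and Sparc from 519 to 2156 (log2 2.06). Of 6 angiopoietin pathway genes, 2 were higher and 2 lower (median 0.23), and Tek was at 8.11 RPKM in siControl and 4.97 in siMyc (log2 −0.62, limma adjusted p = 0.00144). Of 9 oxygen-sensing genes, 6 were higher and 1 lower (median 0.34). Epas1, the hypoxia-inducible factor subunit best known from endothelium, was at 1.69 RPKM in siControl and 8.86 in siMyc with dox (log2 1.87, adjusted p = 1.1e-07). Of 20 genes induced by low oxygen, 9 were higher and 8 lower (median 0.15), among them Pfkfb4 (5.59 to 37.3 RPKM, log2 2.54), Ddit4 (log2 −1.63) and Ldha (952 to 317 RPKM, log2 −1.59). Vegfa, itself a textbook target of low oxygen, lay at 8.38 RPKM in siControl and 11.8 in siMyc with dox.

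The levels of each member can be ordered over the 6 groups. Pgf, Flt1, Flt4, Edn1 and Edn2 were highest in siMyc with dox, Nrp1 and Vegfc in siMyc without dox, Vegfa in siControl without dox, and Vegfb and Nrp2 in siGcn5 without dox. For Pgf, Flt1, Flt4 and Edn2 the siMyc libraries with dox did not overlap the next group, while for Edn1 the 4 highest groups overlapped each neighbour in the order (means of 7.49, 6.04, 5.22 and 4.91 RPKM). For Edn2 the order below siMyc was siGcn5 with dox (11.1 RPKM) and siControl with dox (10.0), which overlapped, and then siMyc, siGcn5 and siControl without dox, of which siGcn5 overlapped both others while siMyc and siControl did not overlap. For Nrp1 no neighbours overlapped, from 75.2 RPKM in siMyc without dox to 17.1 in siControl with dox.

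The genes whose log2 levels followed a member most closely over the 12 libraries were taken from 6378 other tested genes that varied by at least 1 log2 between group means. Edn2 was followed by Prkch (Pearson r = 0.999), the transcription factor gene Isx (r = 0.998) and the ligand gene Wnt7a (r = 0.998). Pgf was followed by Gm16907 (r = 0.996), Ano8 (r = 0.996) and 2010111I01Rik (r = 0.992). Flt4 was followed by Nkain4 (r = 0.994), Galnt2 (r = 0.980) and 0610031J06Rik (r = 0.979), and Flt1 by Ppt1 (r = 0.987), St6galnac6 (r = 0.986) and Sorcs2 (r = 0.986). These coefficients rest on 6 group levels with 2 libraries each, share those libraries' depth, and were the highest out of the whole pool, so they are given as descriptions.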

How the data were processed

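RNA was sequenced from 12 libraries of mouse fibroblasts, 2 per group. The authors deposited 1 table of RPKM per library. Per the submitters' processing notes, Bowtie 0.12.8, TopHat2 2.0.9, HTSeq and edgeR were among the tools, with mm9 as genome build. The sources used here give no annotation, strand setting or filter. RPKM was used as deposited. It is scaled to each library's total, so RNA per cell is not measured. RPKM values gave back whole reads for 100% of 20788 genes with a value (tolerance 0.05 read), and these reads served the depths, the read counts of Edn2, Edn1 and Edn3, and a check with voom.

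A gene was tested if 2 or more libraries had an RPKM of at least 1 (13175 genes). The log2(RPKM + 1) values of all 12 libraries were fitted in limma 3.58.1 (R 4.3.3) with the trend option and a mean for each group, which leaves 6 residual degrees of freedom. Adjusted p-values are from limma, two-sided, by Benjamini-Hochberg over all tested genes, with a threshold of 0.05. The fit was tested on simulated data. Replicates correlated at Spearman 0.990 to 0.997, and their reads differed by more than sampling noise.

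The members, gene lists and markers were chosen with earlier results of these data known. Named genes are the members, the targeted genes, up to 3 called genes of each list with the largest change in a comparison (with Kdr, Figf, Edn3, Ednra, Ednrb, Ece1, Ece2 and Hif1a named besides, after their values were seen) and the 3 genes most like each of the 4 members with the widest range. Pou5f1, Sox2 and Klf4 are also named, as introduced factors. Alternatives were pseudocounts of 0.1 and 5, no filter, a mean RPKM of at least 5, median-ratio and quantile scaling, a replicate block, only the compared groups, each library left out and, chosen after seeing the data, voom on recovered reads. Promoter windows are from RefSeq (GRCm38.p6), with Python 3.11.15. Nrp1 overlaps Mir1903 on the same strand, so its reads could be shared.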

Additional observations from a re-analysis of the deposited data

Results flagged for a closer look

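The response to dox differed between siGcn5 and siControl cells, by limma's interaction term, for 3 members of 10. By the same term 25.9% of all tested genes were called in either direction. The siGcn5 response minus the siControl response on the log2 scale was 0.832 for Nrp1 (adjusted p = 0.0031), −0.581 for Nrp2 (adjusted p = 0.00746) and 0.662 for Pgf (adjusted p = 0.0279). The Pgf call was lost with a pseudocount of 5 (adjusted p = 0.0612) and without a filter on low values (adjusted p = 0.0584). It was also lost without some single libraries, and the Pgf difference was 0.490 without siControl replicate 2 with dox.

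For 4 members, all libraries of one group moved one way and all libraries of another the opposite way. These differences were not tested, and Pgf and Flt4 are among the members chosen by siMyc values. The share of all tested genes with such opposite moves was not counted. For dox in siMyc, 45% of all tested genes lay higher and 28.2% lower without overlap. For siMyc against siControl the shares were 37.8% and 31.4% without dox, and 44.9% and 43.2% with dox. Vegfa was lower in siMyc than in siControl without dox (log2 −0.17) and higher with dox (log2 0.452). With dox, Pgf (log2 2.34), Flt1 (log2 0.423) and Flt4 (log2 0.526) were higher in siMyc cells, while in siControl cells the same genes were lower with dox (log2 −0.58, −0.81 and −0.78).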

How the results depend on the processing

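All calls of members for dox in siControl held under every alternative in which the gene was tested. The count of members called higher in siGcn5 without dox (3) ran from 1 to 3 with 1 library left out. With dox the 3 higher members became 1 where a mean RPKM of at least 5 was required, as fewer genes were tested, and ran from 1 to 4 with 1 library left out. The 2 lower members became 1 without a filter and ran from 0 to 2 with 1 library left out. For the siGcn5 by dox interaction the 2 positive calls became 1 with a pseudocount of 5 and 1 without a filter, and ran from 1 to 3 with 1 library left out; the cause was not tested.

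Same-numbered replicates deviated together at correlations of 0.0933 to 0.489, positive in all 15 pairs of groups and over 0.1 in 14. The numbers were to count as pairing only if all 15 exceeded 0.1 and no label says what they share, so these correlations are a hint from the data. With a replicate block, 5 members were called positive in the interaction (Vegfc, Flt1 and Flt4 joining at adjusted p = 0.00512, 0.0408 and 0.0117), Flt4 was called for dox in siGcn5 (0.00326) and Vegfb for siGcn5 with dox (0.0388). The block also raised the calls among all 13175 tested genes, from 3409 to 5061 for the interaction. They went from 7693 to 8629 for dox in siGcn5 and from 7412 to 8381 for siGcn5 with dox.

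Counts of siMyc differences of at least 1 log2 moved with the scale. For dox in siMyc, no member was lower by 1 or more, and 1 (Vegfb) was with a pseudocount of 0.1, median-ratio scaling, quantile normalization or voom (0 to 1 with 1 library left out). For siMyc without dox, 1 member was higher, 2 with a pseudocount of 0.1 and 3 with voom (1 to 2 with 1 library left out). For the siMyc by dox interaction, 4 became 2 with a pseudocount of 5 and stayed at 4 with 1 library left out.

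Signs reversed only for values that were not called. Scaling by median ratios gave −0.075 for Nrp2 with dox in siControl and −0.011 for Pgf with dox in siGcn5, and quantile normalization gave −0.12 and −0.11. Quantile normalization also gave −0.012 for Edn2 in siGcn5 without dox. The interaction of Edn2 was −0.019 with a pseudocount of 0.1 and −0.17 with voom. With 1 library left out, Edn1 ran from −0.41 to 0.068 for dox in siControl. For dox in siGcn5, Pgf ran from −0.026 to 0.19, Vegfc from −0.23 to 0.042, Flt1 from −0.55 to 0.026 and Edn1 from −0.14 to 0.44. For siGcn5 without dox, Edn2 ran from −0.013 to 0.082. For siGcn5 with dox, Flt4 ran from −0.19 to 0.098, Nrp2 from −0.053 to 0.045 and Edn2 from −0.11 to 0.41, and the interaction of Edn2 from −0.14 to 0.38. Of these, Flt1 for dox in siGcn5 (adjusted p = 0.00605) and Edn2 for siGcn5 with dox (0.0127) were called with 1 library left out. Edn2 without dox rests on 9 to 29 reads.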
